A study of Danio rerio with 11 samples.

Results

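The nuclear receptor genes of the zebrafish were examined in RNA from 11 single whole embryos at about 25 hours after fertilisation (hpf), comparing 6 embryos with the mutant phenotype (replicates 1, 3, 4, 5, 6 and 7) and 5 of their siblings (replicates 2, 3, 4, 7 and 8). Genes were chosen by name, as the thyroid hormone, retinoic acid, retinoid X, fatty acid, estrogen, vitamin D and orphan receptor names and all names of the nr series. The rule matched 64 of the 14473 genes deposited, and 62 of them encode nuclear receptors. The other 2 are thrap3b, a splicing factor and coactivator, and nr2c2ap, a protein that binds a receptor, and they were kept apart. thrb was set against the remaining receptors because its difference was already known from these embryos, so its values are a description.

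The parents carried the rfx4uw8013 mutation according to the series design, whereas the growth protocol names double zic2 carriers, and the labels do not settle which is right. The series title and the genotype labels, rfx4 mutant and control, name rfx4, a winged-helix transcription factor gene, and they are followed here. Embryos of both groups came from natural matings and were kept at 29 °C without treatment. They were sorted by appearance, so a mutant label rests on phenotype, and a sibling may be wild type or heterozygous. Each library held the RNA of 1 embryo.

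Nuclear receptors are transcription factors that bind DNA through a pair of zinc fingers and, in many cases, a small lipid-soluble ligand such as thyroid hormone, retinoic acid, cortisol or a sterol. Many of them bind DNA together with a retinoid X receptor, and without ligand some hold corepressors at their target genes. In the vertebrate embryo, retinoic acid patterns the hindbrain and spinal cord, and orphan receptors of the COUP-TF group act in forming brain, eye and vessels.

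Total counts ran from 16238368 to 21104811 per embryo. rfx4 itself was at 32.7 to 54.1 CPM (counts scaled to a library of 1000000) in mutants and 50.6 to 74.3 CPM in siblings, so the groups overlapped, and its transcript was present in every mutant. Mutant 6 held the highest value of the 11 embryos for 16.5% of the 12301 tested genes and the lowest for 18.1%, and mutant 7 and sibling 3 also held many extremes. In whole-embryo RNA, fewer cells of a type and less RNA per cell cannot be told apart.

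Of the 62 receptor genes, 57 had enough counts to be tested. The other 5, esr1, nr0b1, nr1h4, nr5a1b and nr5a5, had between 0 and 18 counts in every embryo. The receptor genes together made up 1088 ± 43.7 TPM (transcript abundance scaled for gene length, summing to 1000000 per embryo) in siblings (SD, n = 5) and 1161 ± 38.1 TPM in mutants (SD, n = 6). The group ranges, 1040 to 1139 TPM and 1107 to 1206 TPM, overlapped. On log2(TPM + 1), 59.3% of all tested genes were higher in mutants, which applies beside every summed TPM given here. Fold changes printed beside TPM values come from the fit to counts, so the 2 measures can differ slightly.

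Levels per length differed widely between the receptors. By sibling mean, 5 genes stood at or above 50 TPM, all of them COUP-TF genes, 22 stood at or above 10 TPM, and 12 lay under 1 TPM. The COUP-TF group held 53.1 ± 2.48% of all receptor TPM in siblings and 54.3 ± 1.59% in mutants. The retinoic acid receptors followed with 11.2 ± 0.542% and the retinoid X receptors with 6.99 ± 0.345% in siblings. The thyroid hormone receptors held 1.13 ± 0.067%. The highest single gene was nr2f5 at 198 ± 11.5 TPM, followed by nr2f2 at 121 ± 10.97 TPM, and their sibling ranges did not overlap. nr2f6b at 90.9 ± 7.76 TPM and nr2f1a at 88.4 ± 4.74 TPM came next and could not be ordered. Along the whole order, 54 of 61 neighbouring pairs had overlapping sibling ranges.

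**Figure D1:**
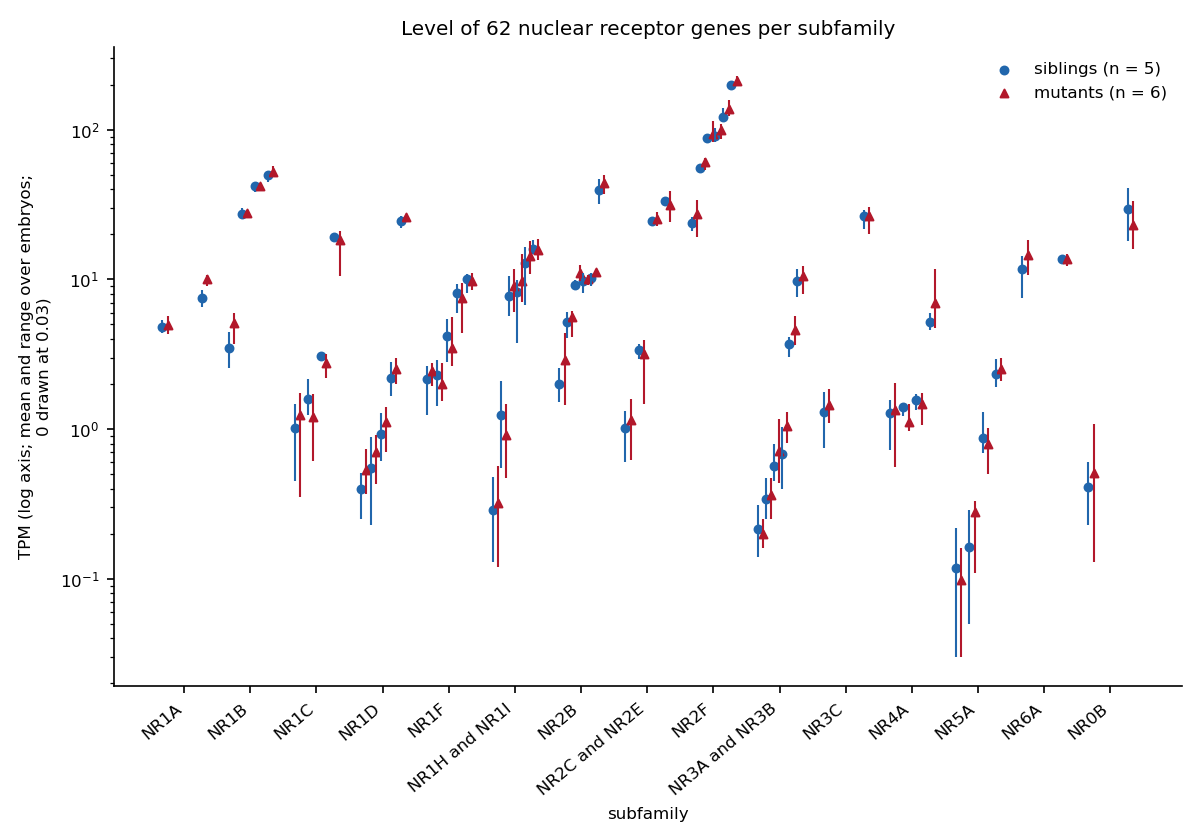
Level of the 62 receptor genes in TPM on a log axis, by subfamily (NR1A, thyroid hormone; NR1B, retinoic acid; NR1C, PPAR; NR1D, Rev-erb; NR1F, Ror; NR1H and NR1I, sterol, xenobiotic and vitamin D; NR2B, retinoid X; NR2C and NR2E, TR2, TR4, Tlx and PNR; NR2F, COUP-TF; NR3A and NR3B, estrogen and estrogen-related; NR3C, corticosteroid; NR4A, NR5A, NR6A and NR0B). Points are means and bars the range over embryos. The means of 5 NR2F genes lie above all other means, with nr2f5 at 198 TPM in siblings. The sibling ranges of nr2f6a, the lowest of these 5, and rarga overlap.

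Mutants were compared with siblings by the edgeR quasi-likelihood test across all 12301 tested genes with Benjamini-Hochberg adjustment. It called 0 receptor genes at an adjusted p under 0.05, where 0% of all tested genes were called. The lowest adjusted p among receptors was 0.254, for thrb, and the next was 0.614. By DESeq2, a second count test, thrb was the 1 receptor called (adjusted p = 0.0148), against 0.358% of the genes it tested. At an unadjusted p under 0.05, edgeR gave 6 of the 57 receptors (10.53%), against 6.85% of all tested genes. Of these 6, 5 were higher in mutants (thrb, rargb, rxraa, esrrgb and nr2f2) and 1 was lower (nr4a2b), where 3.79% and 3.06% of all genes lay on those sides. The 6 include thrb, which was chosen for its difference, and so does the DESeq2 call. Apart from thrb, 5 receptors passed the unadjusted threshold. Without sibling 2 the count of 6 became 2, where 5.61% of all genes passed. Without sibling 4 or 7 it became 3, where 5.65% and 5.97% of all genes passed, and without both mutant 7 and sibling 3 it became 3, where 8.24% passed.

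Fitted log2 fold changes of the 57 receptors ran from −0.46 to 0.58, and 55 of them were within 0.5 of 0. Fitted values were above 0 for 38 receptors and below 0 for 19, so 66.7% were above 0, against 50.2% of all tested genes. Their median was 0.07, and that of all tested genes was 0.0009. The receptor median was 0.031 without sibling 3 and 0.039 without sibling 7. There 63.2% and 64.9% of receptors were above 0, against 49.0% and 50.9% of all tested genes. In a fit with sample weights the receptor median was 0.040, with 59.6% of receptors above 0, against 48.2% of all genes. With counts scaled by library totals alone, 71.9% of receptors were above 0, against 59.0% of all genes. In the edgeR test of all embryos, the median absolute log2 fold change was 0.14 for receptors and 0.09 for all genes. The spread between embryos was also wider for receptors, with a median SD of log2 CPM of 0.21 in siblings against 0.17 for all tested genes, and 0.24 against 0.19 in mutants. Receptors and all tested genes were not matched for count level in either comparison.

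**Figure D2:**
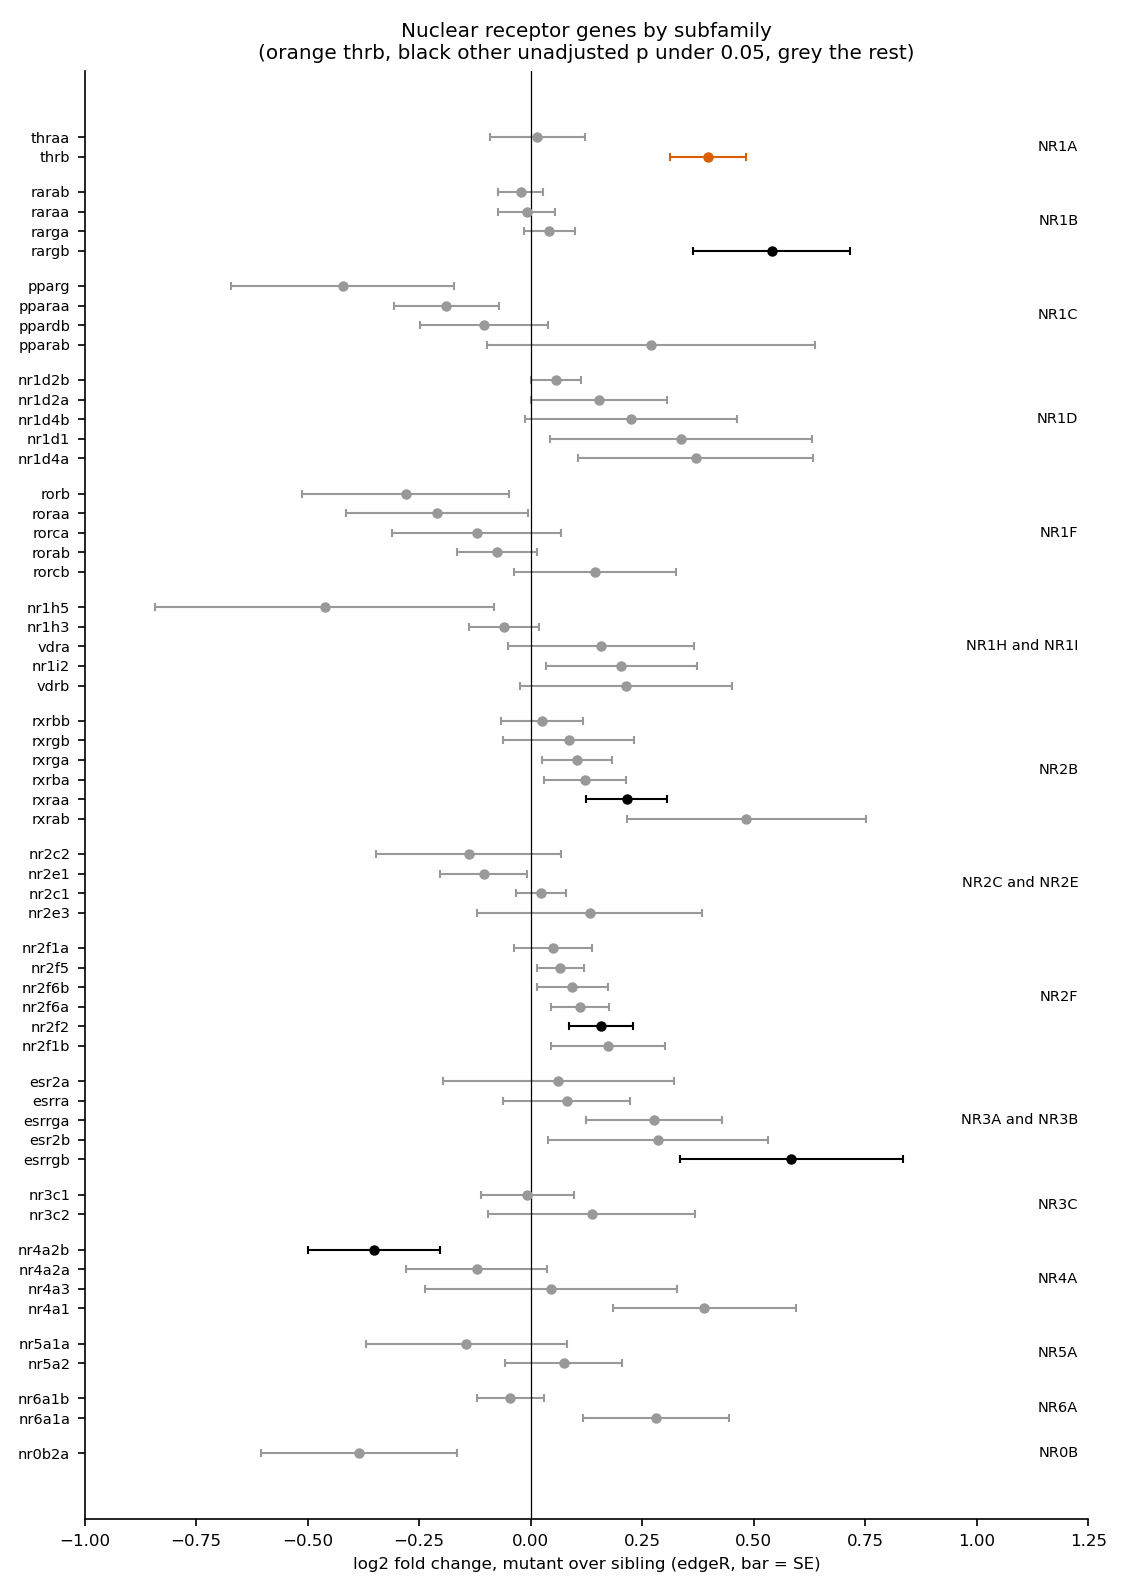
Fitted log2 fold change, mutant over sibling, of the 57 tested receptor genes with its SE, grouped by subfamily as named above. thrb is in orange, the other 5 genes at an unadjusted p under 0.05 are in black, and the values run from −0.46 to 0.58.

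Thyroid hormone receptors bind their hormone, mostly triiodothyronine, and without it can act as repressors. The table held thraa and thrb, while thrab was not analysed here. thrb had 234, 265, 253, 245, 258 and 274 counts in mutants 1, 3, 4, 5, 6 and 7, and 228, 253, 169, 183 and 200 in siblings 2, 3, 4, 7 and 8. Scaled for library size, this was 13.01, 14.2, 16.2, 14.5, 15.4 and 14.9 CPM in the mutants and 12.2, 11.9, 9.98, 10.2 and 11.3 CPM in the siblings. Every mutant lay above every sibling after scaling, although the raw counts overlapped, and the gap between mutant 1 and sibling 2 was the narrowest. Such a separation upward was found for 1 of 57 receptors (1.75%) and for 0.455% of all tested genes, and downward for 0 receptors and 0.488% of all genes. The 1 receptor was thrb itself, chosen for its difference, so this share says nothing further about receptors. No other receptor was separated in either direction.

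Per length, thrb was at 10.04 ± 0.54 TPM in mutants (SD, n = 6) and 7.47 ± 0.817 TPM in siblings (SD, n = 5). The fit to counts gave a log2 fold change of 0.40 ± 0.08 (SE) or 1.32-fold. The exact two-sided permutation p over the 462 splits of the embryos was 0.00216, the smallest these splits can give. As thrb was already known to differ and its groups did not overlap, this p is not independent evidence. By edgeR p, thrb ranked 21 among all 12301 genes. Leaving out each embryo in turn gave log2 fold changes of 0.36 to 0.44 with edgeR adjusted p from 0.210 to 0.526. Every mutant stayed above every sibling in each of these repeats, as had to follow from the full separation.

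thraa, the other thyroid hormone receptor gene, was at 6.17, 6.33, 8.31, 8.14, 7.05 and 7.43 CPM in the mutants in the same order and at 6.87, 7.41, 6.55, 7.07 and 7.88 CPM in the siblings. These groups overlapped fully, with a log2 fold change of 0.01 ± 0.11 (SE) and an exact permutation p of 0.903. The CPM ratio of thrb to thraa within an embryo was 2.04 ± 0.173 in mutants and 1.56 ± 0.143 in siblings. Mutants ran from 1.775 to 2.25 and siblings from 1.44 to 1.781, so mutant 5 lay just below sibling 2 and the groups overlapped. The difference of the log2 ratio was 0.39, with an exact two-sided permutation p of 0.00649, and for the thrb to thraa ratio it was 0.00476 to 0.0159 with 1 embryo left out. As thrb was chosen for its difference, this p is not independent evidence.

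**Figure D3:**
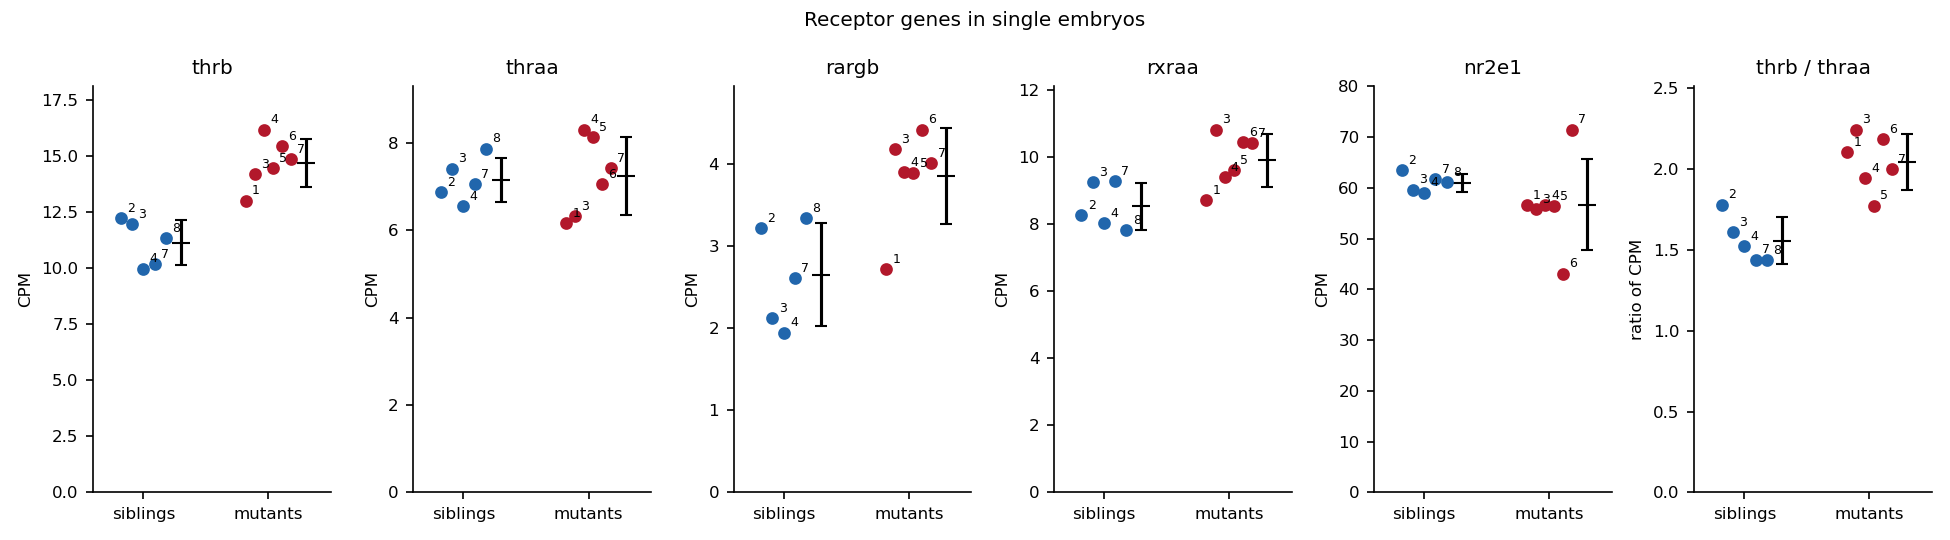
CPM of thrb, thraa, rargb, rxraa and nr2e1 and the ratio of thrb to thraa, each point 1 embryo with its replicate number, and mean ± SD beside the points (siblings blue, n = 5; mutants red, n = 6; axes from 0). All 6 mutants lie above all 5 siblings for thrb, 5 of 6 do so for rargb and rxraa, and 5 of 6 mutants lie below all siblings for nr2e1.

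The retinoic acid receptors activate their targets when retinoic acid binds, and the zebrafish table held 4 of them. rargb was the member that differed most. It was lowest at 2.72, with a median of 3.96 and a highest value of 4.42 CPM in mutants, and at 3.22, 2.13, 1.95, 2.62 and 3.34 CPM in siblings 2, 3, 4, 7 and 8. Mutant 1 lay among the siblings and the other 5 mutants lay above all of them. The log2 fold change was 0.54 ± 0.18 (SE, edgeR unadjusted p = 0.0093, adjusted p = 0.614). rarga, the most abundant of the 4, was at 52.0 ± 3.02 TPM in mutants and 49.5 ± 3.61 TPM in siblings (log2 fold change 0.04 ± 0.06). rarab and raraa were at −0.02 ± 0.05 and −0.01 ± 0.06, and both turned above 0 when counts were scaled by library totals alone. rargb was at 3.48 ± 0.897 TPM in siblings, the lowest of the group, with 33 to 78 counts per embryo.

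The retinoid X receptors are dimer partners of many other receptors. All 6 had fitted values above 0, with a median log2 fold change of 0.11, where 50.2% of all tested genes were above 0. Against 6.85% of all tested genes, 1 of 6 was at an unadjusted p under 0.05. This was rxraa, at a lowest of 8.73, a median of 10.02 and a highest of 10.8 CPM in mutants and at 8.27, 9.26, 8.03, 9.29 and 7.82 CPM in siblings. As for rargb, mutant 1 lay among the siblings and the other mutants above them (log2 fold change 0.21 ± 0.09, edgeR adjusted p = 0.711). rxrba, the most abundant member at 39.8 ± 6.21 TPM in siblings and 44.3 ± 5.15 TPM in mutants, was at 0.12 ± 0.09, or 0.058 without sibling 3. The largest fitted value of the group, 0.48 ± 0.27, belonged to rxrab, a gene of 20 to 61 counts per embryo. The direction of rxrbb (0.02 ± 0.09) turned when sibling 7 or sibling 8 was left out.

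The peroxisome proliferator-activated receptors (PPARs) bind fatty acids and regulate their use and storage. Their median log2 fold change was −0.15 over 4 members, with 0 at an unadjusted p under 0.05, against 6.85% of all tested genes. ppardb, the most abundant, was at 19.2 ± 0.567 TPM in siblings, one of the tightest values of all receptors, and at 18.2 ± 3.89 TPM in mutants. The wider spread came from mutant 6 at 22.7 CPM, where the other mutants ran from 37.9 to 46.2 CPM and siblings from 41.6 to 44.1 CPM. pparg, known as the receptor of fat cell formation in mammals, was at −0.42 ± 0.25, with 10 to 39 counts per embryo. pparaa was at −0.19 ± 0.12 and pparab at 0.27 ± 0.37, which ran from 0.073 without sibling 3 to 0.47 without mutant 7. Without mutant 6 ppardb was at 0.011.

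Rev-erb receptors repress clock genes and the Ror receptors activate through the same DNA sites. All 5 Rev-erb genes had fitted values above 0 (median log2 fold change 0.22), where 50.2% of all tested genes did. For Ror, 4 of 5 genes had values below 0 (median −0.12). At an unadjusted p under 0.05 were 0 of these 10 receptors, against 6.85% of all tested genes. The fifth Ror gene, rorcb (0.14 ± 0.18), turned below 0 without sibling 3 and with sample weights. nr1d2b, the most abundant Rev-erb gene, was at 26.2 ± 0.531 TPM in mutants and 24.7 ± 1.59 TPM in siblings (0.06 ± 0.06). nr1d4a, the Rev-erb gene of lowest p, was at 0.37 ± 0.26 with only 5 to 14 counts per embryo. rorab was the most abundant Ror gene at 10.03 ± 1.14 TPM in siblings and was at −0.08 ± 0.09, and rorb, known from retina and brain, was at −0.28 ± 0.23.

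The sensors of sterols, bile acids, foreign compounds and vitamin D had 5 tested members. At an unadjusted p under 0.05 there were 0, against 6.85% of all tested genes. nr1h3, the oxysterol receptor, was the most abundant at 16.1 ± 1.42 TPM in siblings and 15.7 ± 1.64 TPM in mutants (−0.06 ± 0.08). nr1h5, a relative of the bile acid receptor, varied most between siblings of all tested receptors, with an SD of log2 CPM of 0.78, and was at −0.46 ± 0.38, or −0.20 without sibling 2. The vitamin D receptor genes vdra and vdrb were both lowest in sibling 3 among all 11 embryos. vdrb was at 3.54 CPM in that embryo and between 8.09 and 8.90 CPM in the other siblings, and vdra at 2.13 CPM in it. The log2 fold changes were 0.21 ± 0.24 for vdrb and 0.16 ± 0.21 for vdra. Without sibling 3, vdrb was at 0.031 and vdra turned below 0, and without mutant 6 vdrb was at 0.063.

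In the group of TR2, TR4, Tlx and PNR, nr2e1 encodes Tlx, a receptor of neural stem cells known from mouse brain and retina. Its lowest, median and highest values were 43.1, 56.5 and 71.5 CPM in mutants, and siblings were at 63.5, 59.6, 59.0, 61.7 and 61.1 CPM. The siblings were tightly grouped, 5 of 6 mutants lay below all of them, and mutant 7 lay above all of them. Over all embryos the log2 fold change was −0.11 ± 0.10 (SE, edgeR unadjusted p = 0.299). Without mutant 7 it was −0.18, with an edgeR unadjusted p of 0.0428, where 7.76% of all tested genes were under 0.05. Without mutant 6, the lowest embryo, the log2 fold change of nr2e1 was −0.04. nr2c2, the TR4 gene, had its lowest value, 2.03 CPM, in mutant 6, whereas the remaining mutants spanned 3.84 to 5.59 CPM (−0.14 ± 0.21, or 0.0067 without mutant 6). nr2c1, which encodes TR2, had the smallest SD of log2 CPM among siblings of all tested receptors, 0.03, and was at 0.02 ± 0.06.

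The COUP-TF genes, known for roles in forebrain, eye, heart and vein formation, included the 5 receptor genes of highest mean TPM in siblings. By that mean nr2f1b ranked 15, at 23.7 ± 1.93 TPM. All 6 COUP-TF genes had fitted values above 0, between 0.05 and 0.17 (median 0.10), where 50.2% of all tested genes were above 0. At an unadjusted p under 0.05 there was 1 of 6, against 6.85% of all tested genes. nr2f2 was at a lowest of 328, a median of 347 and a highest of 413 CPM in mutants and at 306, 316, 301, 309 and 361 CPM in siblings 2, 3, 4, 7 and 8. Sibling 8 stood among the mutants, and the other 4 siblings lay below all mutants (log2 fold change 0.16 ± 0.07 SE, edgeR unadjusted p = 0.0474, adjusted p = 0.721). nr2f5 was at 212 ± 8.91 TPM in mutants and 198 ± 11.5 TPM in siblings (0.07 ± 0.05). With mutant 7 left out, the fitted value of nr2f1a (0.05 ± 0.09) turned below 0. The summed level of the group was 591 to 685 TPM in mutants and 543 to 610 TPM in siblings, which overlapped.

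The estrogen receptors esr2a and esr2b were scarce, at 0.342 and 0.57 TPM in siblings, and esr1 was below the count filter. All 5 tested members of this group, with the estrogen-related orphan receptors, had fitted values above 0 (median 0.28). Of all tested genes, 50.2% were above 0. esrrgb was at a lowest of 0.717, a median of 0.944 and a highest of 1.13 CPM in mutants and at 0.644, 0.378, 0.945, 0.668 and 0.51 CPM in siblings. Sibling 4 overlapped with the mutants (log2 fold change 0.58 ± 0.25 SE, edgeR unadjusted p = 0.0366, adjusted p = 0.711), and the gene had 8 to 21 counts per embryo. esrra, an orphan receptor of energy metabolism, was the most abundant of the group at 9.79 ± 1.78 TPM in siblings and was at 0.08 ± 0.14. The direction of esr2a (0.06 ± 0.26) turned without mutant 4, sibling 2 or sibling 7, without mutant 7 and sibling 3 together, and with sample weights.

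nr3c1, the glucocorticoid receptor, was at 26.7 ± 3.57 TPM in mutants and 26.3 ± 2.86 TPM in siblings. Its log2 fold change in the fit to counts was −0.01 ± 0.10. nr3c2, the mineralocorticoid receptor, was far scarcer at 1.31 ± 0.492 TPM in siblings and was at 0.14 ± 0.23. Neither gene separated the groups.

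The Nr4a genes are orphan receptors induced rapidly by many stimuli. nr4a2b, related to a gene of dopamine neurons in mammals, was at a lowest of 1.38, a median of 1.52 and a highest of 2.06 CPM in mutants and at 2.04, 2.22, 2.18, 2.00 and 1.76 CPM in siblings. Mutant 5 was among the siblings and the other 5 mutants lay below all of them. The log2 fold change was −0.35 ± 0.15 (SE, edgeR unadjusted p = 0.0347, adjusted p = 0.711), with 23 to 47 counts per embryo. nr4a1 stood at 23.4 CPM in mutant 7, between 8.95 and 13.3 CPM in the other mutants and between 9.01 and 12.2 CPM in siblings (0.39 ± 0.21, unadjusted p = 0.0809). Without mutant 7 its log2 fold change was 0.17. Of 15 tested immediate early genes, 12 had fitted values above 0 (median 0.25), against 50.2% of all tested genes. At an unadjusted p under 0.05 there were 3, all higher in mutants, where 3.79% of all tested genes lay on that side. fos was highest among these at 1.99 ± 0.63, with 1.79, 5.70 and 25.3 CPM as its lowest, median and highest mutant values against 1.02 to 3.96 CPM in siblings. fosl1a was at 0.70 ± 0.31 and egr2b at 0.38 ± 0.17. Their part in the value of nr4a1 was not tested.

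In the remaining groups 0 genes were at an unadjusted p under 0.05, against 6.85% of all tested genes. nr5a2, a receptor of gut and liver, was at 0.07 ± 0.13 and nr5a1a, a receptor of steroid-forming tissue, at −0.14 ± 0.22. nr6a1a and nr6a1b, which encode germ cell nuclear factor, were at 0.28 ± 0.16 and −0.05 ± 0.07, and nr6a1a was at 0.16 without sibling 3. nr0b2a, a receptor without a DNA-binding domain that represses other receptors in mammalian liver, was at 23.2 ± 6.11 TPM in mutants and 29.6 ± 9.65 TPM in siblings (−0.38 ± 0.22, unadjusted p = 0.105), and its log2 fold change was −0.22 without sibling 7. Beside it, 16 of 17 genes of the yolk syncytial layer had fitted values below 0 (median −0.23), where 50.2% of all tested genes lay above 0. This layer feeds plasma proteins to the embryo. The summed level of these 17 genes was 21005 to 34513 TPM in mutants and 23937 to 45095 TPM in siblings. Their part in the value of nr0b2a was not tested.

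**Figure D4:**
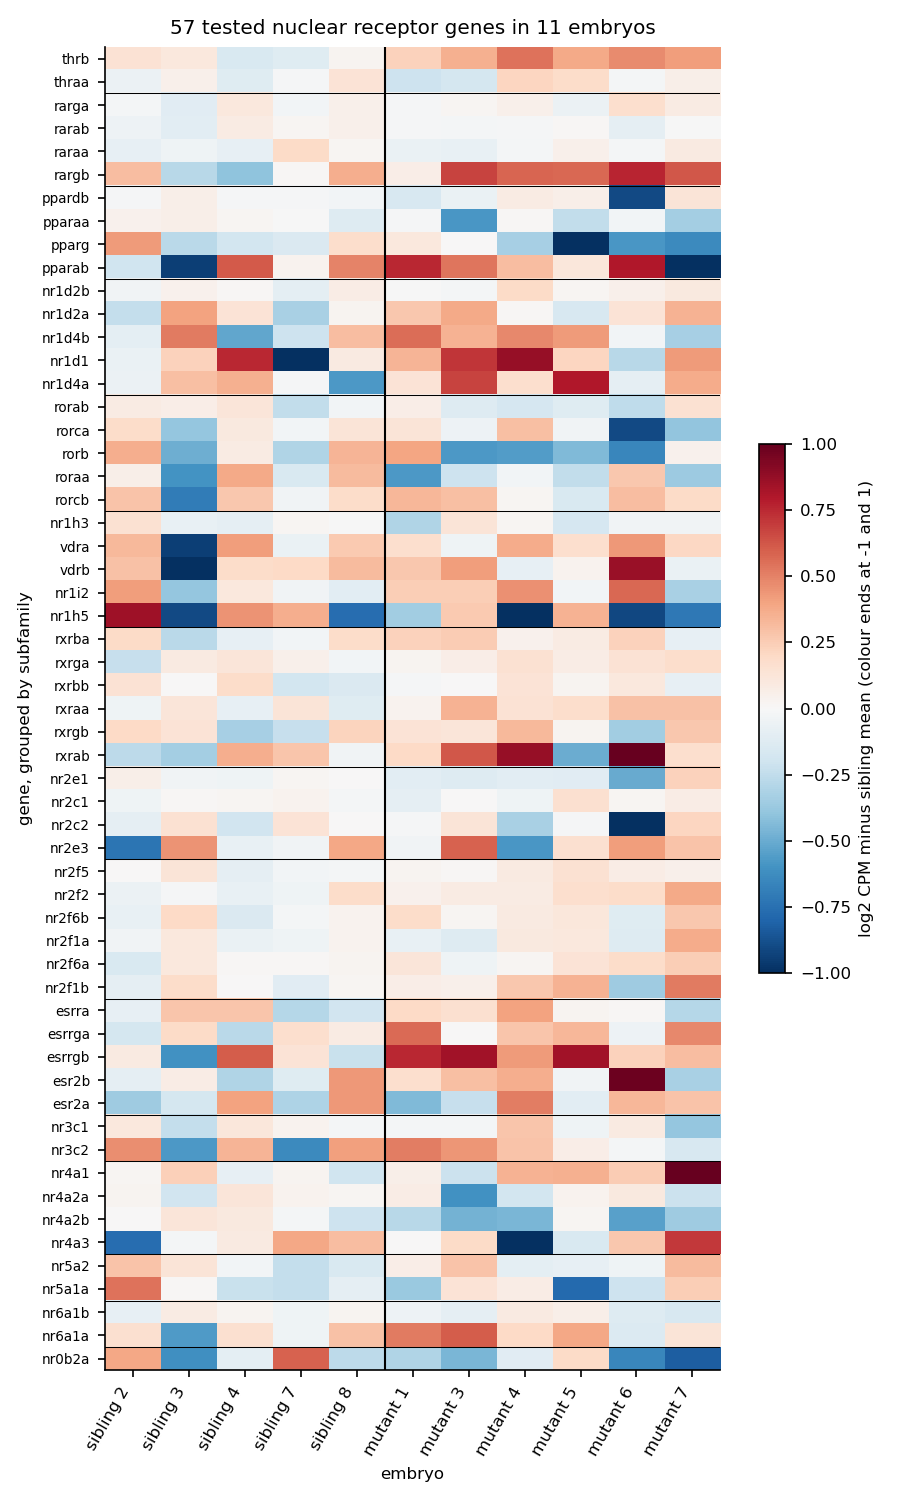
log2 CPM of the 57 tested receptor genes minus the sibling mean in each of the 11 embryos, with genes grouped by subfamily and colours ending at −1 and 1. The thrb row is red in all 6 mutants, while ppardb and nr2c2 are deep blue in mutant 6 alone and vdra and vdrb in sibling 3.

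The extreme values were spread unevenly over embryos. Mutant 7 held the highest value for 13 of the 57 receptors (22.8%, against 12.2% of all tested genes) and mutant 4 for 10 (17.5%, against 8.64%). Sibling 8 held the highest value for 0 receptors (6.15% of all genes), and sibling 3 held the lowest value for 10 (17.5%, against 13.4%). Mutant 6, which stood apart over all genes, held the highest value for 8 receptors (14.04%) and the lowest for 9 (15.8%).

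Some receptor genes lie side by side in the genome. The RefSeq gene table of assembly GRCz12tu was used for gene order, for overlaps of gene spans and for other names of list genes. All 62 receptor names matched in it, and 10 receptors had another receptor as the next coding gene. thrb lies next to nr1d2b, which was at 0.06 ± 0.06, and beyond it rpl15 was at −0.05 ± 0.08. On its other side lies an unnamed coding gene that overlaps thrb. top2b, taken as a nearby gene without its place being looked up, was at −0.10 ± 0.08. These 3 genes lay within 2 SE of 0. rarga lies beside and overlaps nr1d4a, and rargb overlaps nr1d4b (0.22 ± 0.24). The library kit does not mark strand, so reads from exons shared by such a pair could not be assigned by strand. Only gene spans were compared, not exons, so whether these pairs share reads was not tested. In all, 11 receptors overlapped another coding gene in that assembly, thrb among them. nr5a1a neighbours nr6a1a, and nr5a1b neighbours nr6a1b.

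Ligand, cofactor, steroid hormone, clock and immediate early genes and markers of neurons, muscle and the yolk syncytial layer were read from 11 lists with 136 distinct tested genes. edgeR and DESeq2 called 0 of them at an adjusted p under 0.05, and 17 (12.5%) were at an unadjusted p under 0.05, 13 higher and 4 lower, against 6.85% of all tested genes. Without sibling 3 this count was 27, where 7.90% of all genes passed. In the retinoic acid synthesis list 1 of 8 genes was higher and 1 lower at that level, with a median of 0.03. aldh1a2, the main retinoic acid synthesising enzyme of the early embryo, was at 70.4, 76.6 and 84.6 CPM (lowest, median and highest) in mutants and between 60.2 and 70.4 CPM in siblings, with every mutant above every sibling, although the lowest mutant and the highest sibling round to the same value. Its log2 fold change was 0.24 ± 0.06 (SE, edgeR adjusted p = 0.434, DESeq2 adjusted p = 0.095). Such a separation upward was found for 2 of the 136 list genes and for 0.455% of all tested genes. Downward it was found for 0 list genes and for 0.488% of all tested genes. rbp4, the plasma carrier of retinol, which also belongs to the yolk syncytial layer list, was at −0.59 ± 0.25. Of 10 tested genes that remove or bind retinoic acid, only rbp1a, a retinol-binding protein gene, was at an unadjusted p under 0.05, at −0.23 ± 0.07, and the retinoic acid hydroxylase gene cyp26a1 was at 0.07 ± 0.16.

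Of 10 thyroid hormone genes in the table only 4 were tested, among them the transporter gene slc16a10. The mean of slc16a10 was 16.2 ± 2.59 CPM over mutants against 11.9 ± 1.93 CPM over siblings (0.45 ± 0.14 SE, edgeR unadjusted p = 0.0057, adjusted p = 0.584). It was above the sibling median in 6 of 6 mutants, and the groups overlapped. klf9, a thyroid hormone target in other vertebrates, was at −0.01 with 0.735 CPM in mutants and 0.739 CPM in siblings. Of the 9 corepressor genes, 0 were at an unadjusted p under 0.05, against 6.85% of all tested genes. The corepressor gene of lowest p was gps2 at −0.13 ± 0.07. Of 4 coactivator genes in the table, carm1 had the lowest p, at −0.07 ± 0.07, and thrap3b was at −0.0014 ± 0.06. The other 14 listed coactivators were not analysed here. The other name match, nr2c2ap, was at 0.08 ± 0.13.

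The androgen receptor gene ar, a nuclear receptor outside the name rule, averaged 8.02 ± 2.80 CPM over mutants against 4.41 ± 1.13 CPM over siblings, a log2 fold change of 0.86 ± 0.25 (SE, edgeR unadjusted p = 0.0043, adjusted p = 0.54). The ranges overlapped, at 5.25 to 11.3 CPM and 3.34 to 5.80 CPM. tsc22d3, a glucocorticoid target in mammals, was at −0.21 ± 0.08. Both belong to a list with 12 tested genes, of which 3 had fitted values above 0 and 9 below (median −0.08). Of all tested genes, 50.2% were above 0. At an unadjusted p under 0.05 the list had 1 gene higher and 1 lower, where 3.79% and 3.06% of all tested genes lay on those sides. In the clock list 3 of 25 genes were higher at an unadjusted p under 0.05, where 3.79% of all tested genes were. The 3 were per1b (0.38 ± 0.11), per3 (0.32 ± 0.12) and arntl1b (0.28 ± 0.11), a Rev-erb and Ror target in mammals. per1b ran from 75.3 to 112 CPM in mutants and from 61.7 to 74.8 CPM in siblings, without overlap. Such a separation upward was found for 2 of the 136 list genes, aldh1a2 being the other, and for 0.455% of all tested genes. Of 16 neuron markers, 11 had fitted values above 0 and 5 below (median 0.06), where 50.2% of all tested genes were above 0. At an unadjusted p under 0.05 were stmn2b at 0.33 ± 0.11 and tubb5 at −0.21 ± 0.09, against 6.85% of all tested genes. The summed levels were 896 to 1099 TPM in mutants and 855 to 1073 TPM in siblings. Of 17 muscle markers, 9 had fitted values above 0 and 8 below (median 0.01), where 50.2% of all tested genes were above 0. At an unadjusted p under 0.05 were 2, both higher, where 3.79% of all tested genes were. These were myf5 at 0.39 ± 0.14 and myod1 at 0.25 ± 0.12. The muscle sums were 16693 to 26223 TPM in mutants and 18666 to 25527 TPM in siblings. The part of tissue makeup in the value of thrb was not tested.

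**Figure D5:**
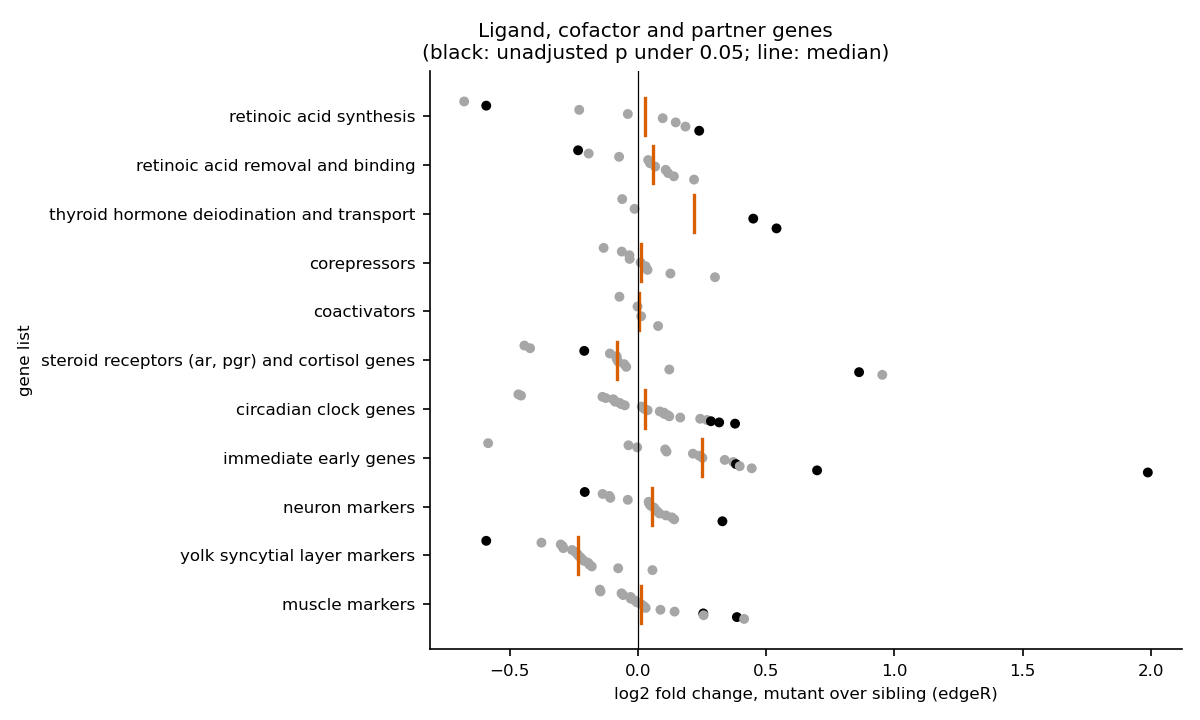
Fitted log2 fold change, mutant over sibling, of the tested genes of 11 lists, black where the unadjusted p was under 0.05, with an orange line at each median. The yolk syncytial layer median is at −0.23, the immediate early gene median at 0.25, and the list medians for corepressors and coactivators lie near 0.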

How the data were processed

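The labels' protocols name a TruSeq library kit (v2) that does not mark strand. The submitters' processing notes list the build Zv9 together with RSEM 1.2.18, CASAVA 1.8.2 and Bowtie 1.1.1, with the role of each and the annotation not given in the sources used here. The authors deposited whole-number counts, taken as rounded RSEM estimated counts, and TPM values scaled for length. Estimated counts can split reads unevenly between close paralogs, which touches receptor pairs such as rargb and rarga. Each library is 1 embryo, so spread within a group is between animals.

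Counts were tested with edgeR 4.0.16 in R 4.3.3 (TMM, filterByExpr, quasi-likelihood, group as the only term), with DESeq2 1.42.0 and limma 3.58.1 as alternatives. CPM used TMM library sizes, log2 CPM a prior count of 1, and SE came from the F statistic. The fits were checked on simulated counts. Members, classes, lists and tests were chosen with earlier results of these data known. Named genes were the thyroid hormone receptors, the member of each class with the highest sibling TPM and that of lowest p, members called, separated or holding an outlying embryo, and list genes at an unadjusted p under 0.05 or of lowest p. Genes that illustrate a spread, a neighbour or a class besides these (such as nr2c1, rxrab, rxrbb, nr2f1a, esr2a, rorcb, vdra, klf9 and cyp26a1) were chosen after their values were seen. No protein or miRNA sequence was used here, so the planned comparison of DNA-binding domains was not run. Of 181 list names 149 were found in the table, 9 under another name. Figures used matplotlib 3.10.9. One list gene that the rule names is not reported here.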

Additional observations from a re-analysis of the deposited data

Results flagged for a closer look

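One embryo far from the rest of its group was looked for by Dixon's ratio in 152 sets of values, which were the receptors and named list genes in each group. It was found in 9 sets, where chance gives about 1 in 20, or 7.6. Mutant 6 was the lowest mutant for ppardb at 22.7 CPM, with the other mutants at 37.9 to 46.2 CPM, for nr2c2 at 2.03 CPM, with the others at 3.84 to 5.59 CPM, for rarab at 74.7 CPM, with the others at 78.3 to 80.1 CPM, and for the corepressor gene gps2 at 37.1 CPM, with the others at 45.6 to 50.7 CPM. Mutant 7 was the lowest for pparab at 0.326 CPM, with the others at 0.944 to 1.55 CPM. Mutant 1 was the lowest for rargb at 2.72 CPM, with the others at 3.89 to 4.42 CPM. Sibling 3 was the lowest sibling for vdrb at 3.54 CPM, with the others at 8.09 to 8.90 CPM, and the highest for ppardb at 44.1 CPM, with the others at 41.6 to 42.0 CPM. Sibling 8 was the highest sibling for nr2f2 at 361 CPM, with the others at 301 to 316 CPM.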

How the results depend on the processing

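The log2 fold change of thrb was above 0 in all 24 other settings, from 0.36 to 0.50, and passed in 1 of them, DESeq2 (0.40, adjusted p = 0.0148); its adjusted p elsewhere was 0.107 to 1.00. With the replicate number as a block it was 0.50 (adjusted p = 1.00). Only the numbers 3, 4 and 7 occur in both groups, so the group difference in this fit rests on those embryos alone. Same-numbered embryos did not vary together (correlations −0.31, −0.19 and −0.14), so the numbers were not taken as pairs. Across the groups the highest correlation was 0.476, between mutant 7 and sibling 3, the embryos that were also left out together. Receptors called numbered 1 by DESeq2, of 44 genes, and 0 in the other settings, leave-one-out included. In those settings 32 genes were called with sample weights, 24 without mutant 6, 2 by limma-voom, 1 without sibling 7 and 0 elsewhere. At an unadjusted p under 0.05 there were 2 receptors and 5 list genes with the replicate block (2.35% of all genes), 3 receptors without mutant 7 and sibling 3 (8.24%), and 28 list genes with sample weights (10.84%). With 1 embryo left out there were 2 to 6 receptors and 13 to 27 list genes (5.61 to 7.90% of all genes). Receptors without overlap numbered 1 to 3 with 1 embryo left out, where 0.602 to 1.122% of all genes lay above and 0.65 to 1.15% below. They included thrb each time, as had to follow from its full separation. The COUP-TF share of receptor levels was 59.5% in CPM. Of 739 repeat values for the 31 other named receptors, 714 kept their direction and side. The 25 that turned belonged to 10 genes. Most lay near 0. nr3c1 was at 0.0033 with upper quartile scaling, 0.018 with total counts, 0.016 on log2(TPM + 1), 0.016 on log2(TPM + 0.1), 0.0088 without mutant 7 and sibling 3, and −0.071 to 0.063 with 1 embryo left out. rarab was at 0.0056 with total counts, 0.0091 on log2(TPM + 1) and 0.0094 on log2(TPM + 0.1), rarga at −0.0065 with sample weights, and nr6a1b at 0.0039 without mutant 7 and sibling 3. With the replicate block, and so from the same-numbered embryos alone, nr1h3 was at 0.087, nr2e1 at 0.019, nr5a1a at 0.31 and ppardb at 0.036. With 1 embryo left out, nr2c2 ran from −0.22 to 0.0067, nr5a1a from −0.23 to 0.027, ppardb from −0.15 to 0.011 and thraa from −0.028 to 0.058. The cause was not tested. Genes with few counts, such as nr1h5 and pparab, had the widest standard errors.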
